A study of Mus musculus with 71 samples.

Results

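The immediate early genes described here are Fos, Fosb, Junb, Egr1, Egr2, Egr3, Egr4, Arc, Npas4 and Nr4a1, read on arrays of mouse brain RNA. They were chosen by name: of 45101 probe sets on the array, 12 carry one of these 10 symbols in the platform annotation, and where a gene has several, the probe set with the highest mean of the 71 arrays stands for it. The 10 genes are among 18193 with a symbol of their own. Egr2 and Egr3 have a second probe set, and the other 8 genes have 1 each.

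The study removed GLP (gene Ehmt1) or G9a (gene Ehmt2), partner enzymes that methylate histone H3 at lysine 9, from neurons. In the GLP series, Camk2a-Cre; GLPfl/fl mice were compared with floxed littermates of like age and sex, with 4 arrays per genotype in hippocampus, hypothalamus, striatum and cortex. In the G9a series, Camk2a-Cre; G9afl/fl mice were compared with their floxed littermates, with 4 arrays per group except 3 hippocampus controls and 2 arrays of each genotype in cortex. Polyribosome-bound mRNA was also taken from striatal projection neurons of 2 kinds: Drd1-Cre; Drd1-bacTRAP; G9afl/fl mice against Drd1-bacTRAP; G9afl/fl mice, and Drd2-Cre; Drd2-bacTRAP; G9afl/fl mice against Drd2-bacTRAP; G9afl/fl mice, with 3 pools of 5 mice in each group. Mice were 10 to 14 weeks old, and every control also carried the floxed allele of its series. Camk2a-Cre acts mainly in forebrain excitatory neurons and in many striatal neurons, so whole tissue holds other cells in which the gene is intact. In whole tissue, fewer cells of a type and less RNA per cell cannot be told apart.

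Immediate early genes are switched on within minutes of a stimulus by factors already present in the cell, such as CREB and SRF, without new protein synthesis. In neurons, calcium entry during synaptic activity is the usual stimulus, and their mRNA is short-lived, which is why they serve as markers of recent activity. Fos, Fosb and Junb encode members of the AP-1 transcription factor family. Egr1 to Egr4 encode related zinc finger transcription factors, Npas4 a calcium-dependent bHLH-PAS transcription factor, and Nr4a1 an orphan nuclear receptor. Arc encodes a synaptic protein that acts in the removal of AMPA receptors from the cell surface.

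Promoter stretches are shown for Fos and Npas4, which were higher in G9a mutants, for Nr4a1, whose level followed that of Fos most closely, and for Junb, whose product pairs with that of Fos in AP-1. They were searched for the core of the cAMP response element that CREB recognises. RefSeq windows (GRCm38.p6) from 250 bases before to 50 bases after a transcript's start were matched to 7 of 9 genes, and Egr1 was not searched. Each of those 7 genes, Fos, Fosb, Junb, Egr2, Egr4, Npas4 and Nr4a1, held at least 1 core, TGACG or CGTCA on its reverse strand, in the 250 bases before at least 1 of its starts, against 19.8% of the 27025 genes with a window searched. Egr2 held one in 3 of its 5 windows, and of all 32851 windows 17.8% held one. Within the same 250 bases, an SRF-type CArG box was found for Egr2 alone among the 7, against 1.6% of those genes. Bases farther upstream were not searched, so a box there would be missed. The full element TGACGTCA, which contains a core on each strand, was found for none of the 7, against 1.8% of those genes. The 200 bases before the start of 4 genes follow, with the cores in capitals. A match is a description of the letters only.
Fos, chr12:85473690-85473889, plus strand: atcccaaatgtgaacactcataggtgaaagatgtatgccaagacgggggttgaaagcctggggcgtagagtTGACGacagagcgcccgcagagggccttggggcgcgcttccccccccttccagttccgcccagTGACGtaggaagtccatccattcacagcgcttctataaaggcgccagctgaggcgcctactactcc
Npas4, chr19:4989972-4990171, minus strand: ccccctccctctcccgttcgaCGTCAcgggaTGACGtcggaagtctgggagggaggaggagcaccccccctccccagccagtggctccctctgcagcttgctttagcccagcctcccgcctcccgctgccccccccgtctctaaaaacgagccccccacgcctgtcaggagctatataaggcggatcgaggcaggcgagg
Junb, chr8:84978749-84978948, minus strand: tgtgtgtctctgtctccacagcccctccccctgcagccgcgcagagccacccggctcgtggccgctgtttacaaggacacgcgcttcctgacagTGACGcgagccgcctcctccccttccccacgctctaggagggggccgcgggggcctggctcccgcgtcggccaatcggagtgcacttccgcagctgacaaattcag
Nr4a1, chr15:101266646-101266845, plus strand: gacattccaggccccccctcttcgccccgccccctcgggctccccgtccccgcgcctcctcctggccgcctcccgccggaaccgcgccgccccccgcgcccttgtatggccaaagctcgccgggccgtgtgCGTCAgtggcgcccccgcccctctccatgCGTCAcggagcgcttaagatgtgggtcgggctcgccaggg

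All levels below are log2 of the deposited intensity, on which 0 is the median probe set of an array. A level of 1 is therefore a signal at 2 times that median. Levels of different genes are not compared, because probe sets differ in brightness. Tests are limma's moderated tests over all genes that lay above the array median in enough arrays, with Benjamini-Hochberg adjustment over all of them and a threshold of 0.05. The deleted genes checked most labels. Ehmt2 was lower in G9a mutants than in controls in all 4 regions, by 1.02 to 1.76 on the log2 scale, and Ehmt1 was lower in GLP mutants by 0.46 to 0.76 in hippocampus, striatum and cortex but by only 0.16 in hypothalamus, which missed the threshold. In the Drd1 pools the Ehmt2 difference was -2.04 (SE 0.75, adjusted p = 0.943), which missed the threshold. In the Drd2 pools it was -0.08 (SE 0.75, adjusted p = 1.00), which does not bear out the label but is too imprecise to contradict it. These are therefore called the Drd2 pools labelled mutant. Xist was high in all 32 GLP-series arrays and in 11 of 27 G9a-series tissue arrays, with 2 of 4 mutants and 2 of 4 controls in striatum and in hypothalamus and 2 of 4 mutants and 1 of 3 controls in hippocampus. In G9a cortex it was high in 0 of 2 mutants and 0 of 2 controls, and in each pool group in 0 of 3 arrays.

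Fos was higher in G9a mutant hippocampus and striatum than in controls, and Egr3 was lower in G9a mutant hypothalamus. Averaged over the 4 regions, Fos and Npas4 were higher and Egr3 was lower in G9a mutants. With same-numbered arrays averaged first, the Fos and Egr3 calls held and the Npas4 call was lost (adjusted p = 0.0587). Cortex counted for less in that step, because not every number had a cortex array. None of the 8 members tested passed in GLP mutants by the average over the 4 regions.

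In G9a hippocampus, Fos stood at 5.04, 5.17, 3.75 and 4.57 in the 4 mutant arrays, against 3.31, 2.78 and 3.53 in the 3 controls. The groups did not overlap, and the third mutant was the closest to the controls. The difference was 1.43 (SE 0.40, 2.69-fold, adjusted p = 0.0381 by limma). Fos was the only one of 9 members tested that passed there, beside 2.72% of all genes in either direction and 2.25% upward. In 5 of the 7 settings that leave out 1 array, the Fos call was lost, with adjusted p up to 0.261 without control 2. Markers of the meninges moved in the same comparison: Col1a2 (difference 1.18) and Lum (1.11) were higher, 2 of 5 tested, and the list mean was 1.81 to 2.88 in mutants and 1.40 to 1.70 in controls. Their part in the result was not tested. Excitatory neuron markers had list means of 5.18 to 5.46 in mutants and 5.38 to 5.47 in controls.

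In G9a striatum, Fos stood at 5.15, 5.49, 3.43 and 5.21 in mutants, against 3.04, 3.92, 3.24 and 3.61 in controls. Mutants 1, 2 and 4 lay above every control, and mutant 3 lay among the controls. The difference was 1.37 (SE 0.37, 2.58-fold, adjusted p = 0.0273), and Fos was the only one of 9 members tested to pass, beside 3.02% of all genes and 1.87% upward. The call was lost on leaving out any of 5 of the 8 arrays, with adjusted p of 0.141 without mutant 2 and 0.134 without control 1, and when the 2 groups were fitted alone (adjusted p = 0.0900). Of 6 excitatory neuron markers tested, 4 were higher in the same arrays: Neurod2, Neurod6, Tbr1 and Slc17a7, which mark cortex rather than striatum. The mean of all 6 markers was 2.83, 2.68, 2.20 and 2.28 in mutants and 0.41, 0.37, 2.86 and 0.60 in controls. Their part in the result was not tested.

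In G9a hypothalamus, Fos was 6.06, 6.31, 5.15 and 6.53 in mutants, against 4.24, 5.29, 4.98 and 4.73 in controls. The third mutant was again the lowest and lay below 1 control. The difference of 1.20 (SE 0.37) did not pass (adjusted p = 0.0689). It passed with the array number as a block (adjusted p = 0.0256), in a comparison where the numbers were not shown to pair the samples, and without mutant 3 (adjusted p = 0.0327). In G9a cortex, with 2 arrays each, Fos was 4.35 and 4.75 in mutants and 4.73 and 4.49 in controls, a difference of -0.06 (SE 0.53). By limma, 0 of 8 members tested passed there, beside 0.728% of all genes, and 0 had an unadjusted p under 0.05.

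In the pools, Fos was 6.67, 6.41 and 6.21 in Drd1 mutants, against 5.87, 4.80 and 5.86 in Drd1 controls. Every mutant pool lay above every control pool, but the difference of 0.92 (SE 0.33) did not pass across all genes (adjusted p = 0.943, unadjusted p = 0.0164). In the Drd2 pools labelled mutant it was 6.48, 7.24 and 7.08, against 5.79, 6.08 and 6.59 in Drd2 controls, and the difference of 0.78 (SE 0.33, adjusted p = 1.00) did not pass either. By limma, 0 of 10 members passed in the Drd1 pools, beside 0.0249% of all genes, and 0 of 10 in the Drd2 pools, beside 0.0165%. Fos alone had an unadjusted p under 0.05 in each. The difference between the Drd1 and Drd2 effects on Fos was 0.14 (SE 0.47, adjusted p = 0.985), and 0 of 10 members passed that test by limma, beside 0% of all genes and 0 members at an unadjusted p under 0.05.

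**Figure D1:**
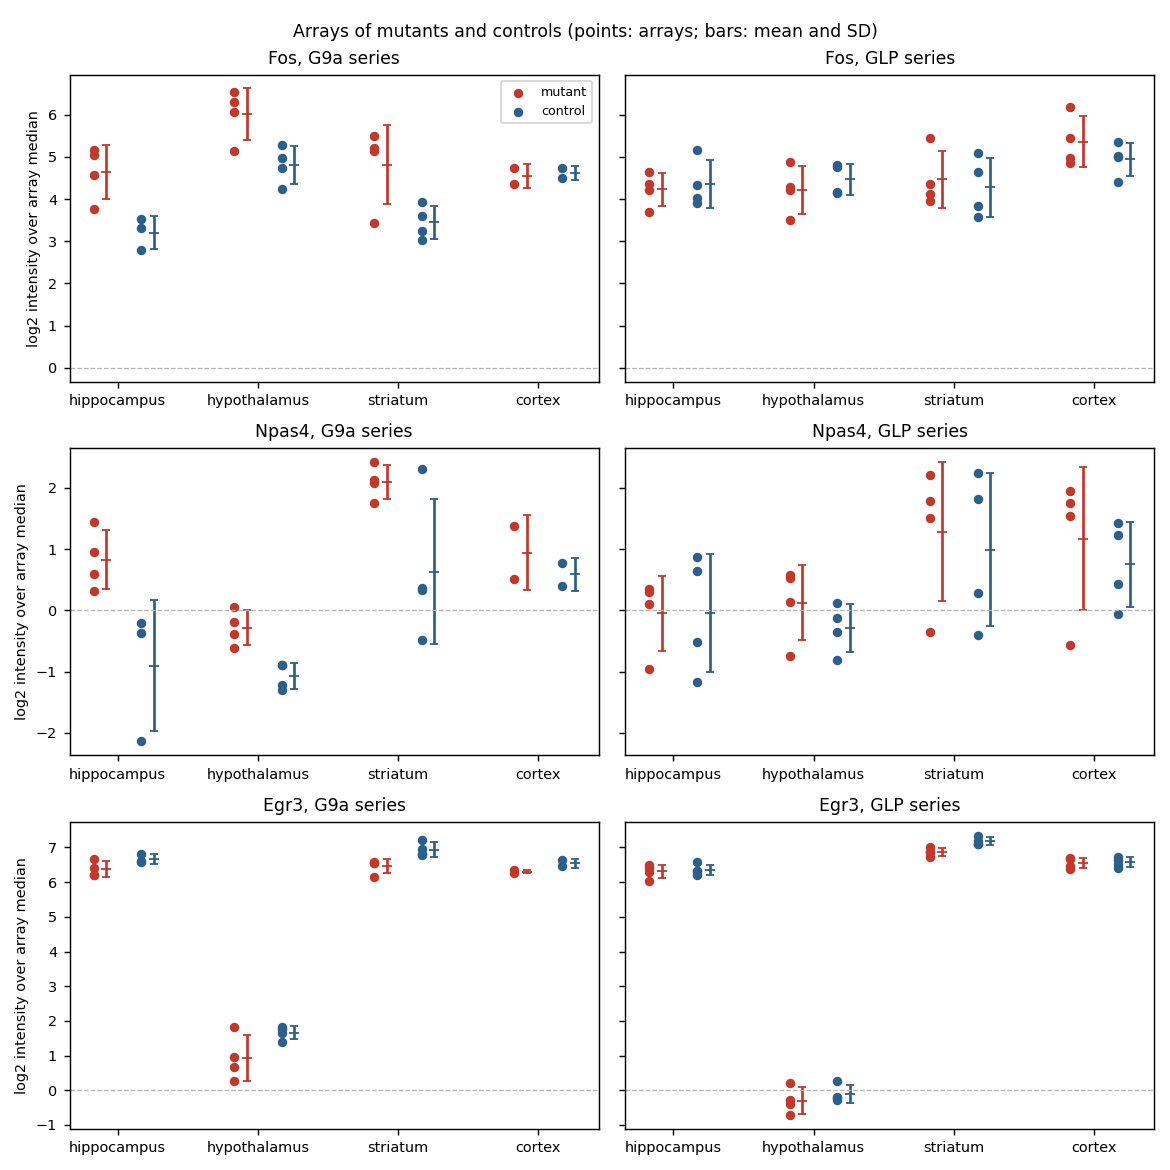
Levels of Fos, Npas4 and Egr3 (log2 intensity over the array median, vertical axis) in the G9a series (left) and the GLP series (right), with mutants in red left of controls in blue in each region. Points are arrays and bars are the mean and SD. Fos in G9a hippocampus lies at 3.75 to 5.17 in mutants and 2.78 to 3.53 in controls, and in GLP hippocampus at 3.70 to 4.65 in mutants and 3.91 to 5.16 in controls.

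In the GLP series Fos showed no such pattern. In hippocampus it was 3.70, 4.65, 4.22 and 4.35 in mutants, against 4.33, 5.16, 3.91 and 4.03 in controls, a difference of -0.13 (SE 0.37). The differences were -0.25 in hypothalamus, 0.19 in striatum and 0.42 in cortex, each with an SE of 0.37. Mutants and controls overlapped in every region. By limma, 0 of 8 members passed in GLP hippocampus, beside 2.05% of all genes, 0 of 4 in hypothalamus, beside 1.01%, 0 of 8 in striatum, beside 1.67%, and 0 of 8 in cortex, beside 1.54%. In each of these comparisons 0 members had an unadjusted p under 0.05. In GLP hippocampus 10 of 11 choroid plexus markers tested were higher in mutants. No member passed the threshold there, but all 8 tested had a negative difference, with a median of -0.14 against -0.02 over all genes. The part of the choroid plexus markers in this was not tested.

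Npas4, whose product controls inhibitory synapse genes in excitatory neurons, had the widest spread of the 10 in whole tissue, though not in the pools. In G9a hippocampus it was 1.43, 0.95, 0.32 and 0.59 in mutants, against -0.21, -2.14 and -0.37 in controls. All mutants lay above all controls, and control 2 lay far below the rest. The difference of 1.73 (SE 0.58) did not pass (adjusted p = 0.115). In G9a striatum it was 1.75, 2.13, 2.08 and 2.42 in mutants, against 0.34, 2.30, -0.49 and 0.36 in controls. Control 2 lay within the mutant range and the difference of 1.47 (SE 0.54, adjusted p = 0.155) did not pass, but it did without control 2 (2.02, adjusted p = 0.0289). In G9a hypothalamus Npas4 was mostly below the array median and was not tested, with -0.19, 0.05, -0.61 and -0.39 in mutants and -1.22, -0.89, -0.90 and -1.30 in controls, which did not overlap. In GLP mutants the 4 regional differences ran from -0.00 in hippocampus to 0.42 in hypothalamus, each with an SE of 0.54.

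Egr3 moved the other way in the G9a series. In hypothalamus it was 0.97, 1.83, 0.67 and 0.25 in mutants, against 1.65, 1.41, 1.76 and 1.82 in controls. Mutant 2 was as high as the highest control, and the other mutants lay below all controls. The difference of -0.73 (SE 0.18, adjusted p = 0.0153) made Egr3 the only one of 6 members tested to pass, beside 2.34% of all genes and 0.75% downward. The call was lost on leaving out any of 4 of the 8 arrays, where adjusted p ranged from 0.0532 without control 4 to 0.116 without mutant 4, and when the groups were fitted alone (adjusted p = 0.912), which leaves only the spread among these 8 arrays. In the same arrays the mean of 11 choroid plexus markers was -0.74 to -0.40 in mutants and -1.07 to -0.88 in controls, which did not overlap. By limma 0 of the 2 tested passed, with 1 at an unadjusted p under 0.05, and their part in the result was not tested. The Egr3 call in hypothalamus was also lost with the mean of both Egr3 probe sets (-0.32, adjusted p = 0.144), the second of which had a mean of -1.24 over all arrays. In G9a striatum Egr3 was 6.54, 6.56, 6.16 and 6.57 in mutants, against 6.81, 6.96, 7.22 and 6.78 in controls. All mutants lay below all controls, and the difference of -0.48 (SE 0.18) had an adjusted p of 0.155. In G9a hippocampus the values were 6.68, 6.42, 6.20 and 6.22 in mutants and 6.82, 6.60 and 6.57 in controls (difference -0.28, SE 0.19). In G9a cortex they were 6.27 and 6.34 in mutants and 6.64 and 6.45 in controls (difference -0.24, SE 0.25). In GLP striatum Egr3 was 7.01, 6.87, 6.73 and 6.87 in mutants and 7.09, 7.18, 7.34 and 7.10 in controls, which did not overlap, with a difference of -0.31 (SE 0.18, adjusted p = 0.592).

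The other 7 members passed no test between mutants and controls in any region, pool or average with all arrays. Egr2 was 2.24, 1.85, 1.43 and 1.66 in G9a mutant hippocampus, against 1.08, 1.04 and 1.21 in controls. These did not overlap, and the difference was 0.68 (SE 0.37, adjusted p = 0.485). Egr2 went the other way in G9a cortex, at 1.28 and 0.94 in mutants and 2.13 and 1.49 in controls (difference -0.70, SE 0.49, adjusted p = 1.00). Egr1 in G9a hypothalamus was 5.05, 5.16, 4.33 and 5.42 in mutants and 4.36, 4.39, 4.90 and 4.61 in controls (difference 0.42, SE 0.17, adjusted p = 0.164), with mutant 3 the lowest of the 8. Without mutant 3 it passed (0.64, adjusted p = 0.0209). Nr4a1 in G9a striatum was 5.29, 5.59, 3.71 and 5.10 in mutants and 4.15, 4.48, 4.64 and 4.35 in controls (difference 0.52, SE 0.26, adjusted p = 0.407). Mutants 1, 2 and 4 lay above all controls and mutant 3 below them all, and without mutant 3 Nr4a1 passed (0.92, adjusted p = 0.0183). Arc in G9a striatum had the same order, at 3.77, 3.96, 2.77 and 4.21 in mutants and 3.22, 3.33, 3.02 and 3.00 in controls (difference 0.53, SE 0.31, adjusted p = 0.505). For Fosb, Junb and Egr4 the tested regional differences ran from -0.32 for Fosb to 0.33 for Junb, both in G9a striatum. Egr4 was tested in no single region because it lay mostly below the array median.

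**Figure D2:**
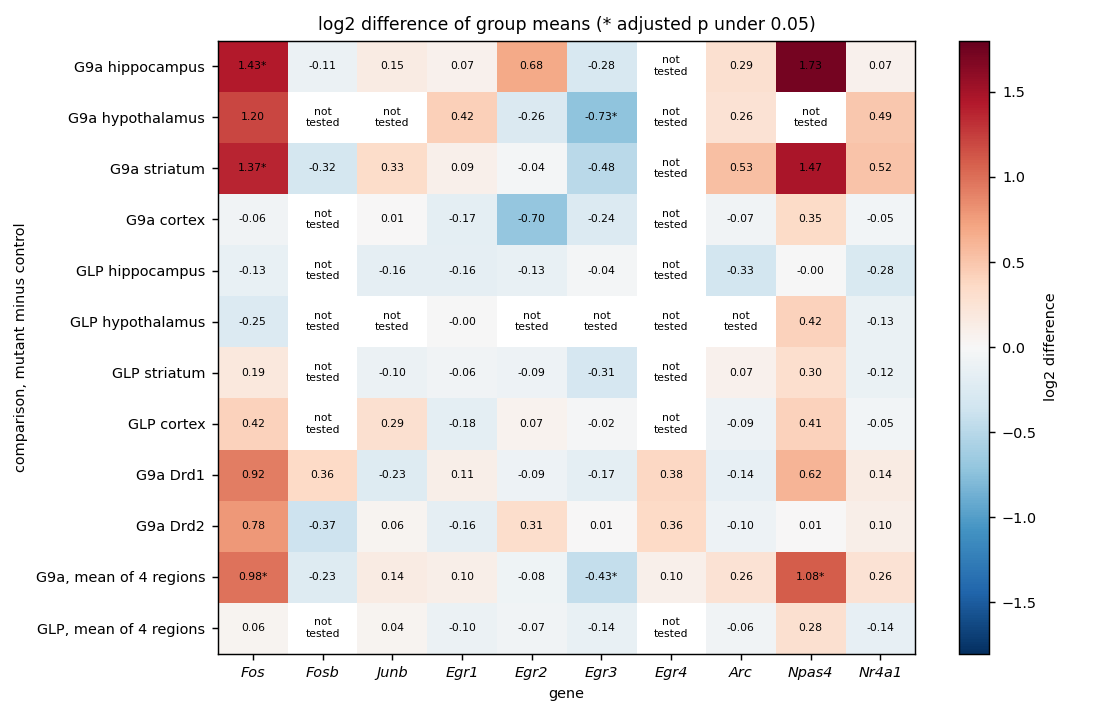
Mutant minus control differences of log2 group means for the 10 genes (columns) in 8 regional comparisons, the pools and the averages over 4 regions (rows). Red is higher and blue is lower in mutants, an asterisk marks adjusted p under 0.05, and genes under the filter on low values are shown as not tested; Fos is positive in 5 of the 6 G9a rows of single regions and pools, with -0.06 in cortex.

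Averaged over the 4 regions, 3 of 10 members passed in the G9a series, beside 6.28% of all genes (4.13% upward and 2.15% downward). Fos was higher by 0.98 (SE 0.21, 1.98-fold, adjusted p = 0.00131) and Npas4 by 1.08 (SE 0.30, adjusted p = 0.0201, but 0.0587 with same-numbered arrays averaged first), and Egr3 was lower, with a difference of -0.43 (SE 0.10, 1.35-fold lower, adjusted p = 0.00299). Meninges markers moved in the same average: Col1a2 (0.66), Lum (0.55) and Slc6a13 were higher, 3 of 5 tested, and their part in the result was not tested. In the GLP series 0 of 8 passed by limma, beside 6.13% of all genes and with 0 members at an unadjusted p under 0.05. There the differences were 0.06 (SE 0.19) for Fos, 0.28 (SE 0.27) for Npas4 and -0.14 (SE 0.09) for Egr3.

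The difference between the GLP and G9a effects was tested directly. Averaged over the regions it was -0.93 for Fos (SE 0.28, unadjusted p = 0.00197, adjusted p = 0.217), 0.29 for Egr3 (SE 0.13, adjusted p = 0.475) and -0.80 for Npas4 (SE 0.41, adjusted p = 0.539). By limma, 0 of 10 members passed, beside 0.147% of all genes, and 3 had an unadjusted p under 0.05. This average was added after the data were seen. Region by region, 0 members passed in hippocampus (9 tested, beside 0.157% of all genes), hypothalamus (7 tested, 0.00831%), striatum (9 tested, 0.00842%) and cortex (8 tested, 0.0168%), with 2, 2, 1 and 0 members at an unadjusted p under 0.05. The Fos term was -1.56 in hippocampus, -1.46 in hypothalamus and -1.18 in striatum, but 0.48 in cortex. A moderated F test of whether an effect differed across the 4 regions called 0 of 10 members in the G9a series, beside 1.37% of all genes, and 0 of 8 in the GLP series, beside 1.08%, with 0 members at an unadjusted p under 0.05 in both. With array weights Egr3 alone passed the regional average (0.35, adjusted p = 0.0370), and in hypothalamus it passed without G9a mutant 2 (0.84, adjusted p = 0.0285).

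The averages treat arrays as independent, and for several members they were not. Arrays that carry the same number in 1 series and genotype moved together across regions: over 82 such pairs of arrays from different regions, the Pearson correlation of deviations from group means was 0.66 for Fos, 0.54 for Nr4a1, 0.50 for Npas4 and 0.41 for Arc. It was 0.03 to 0.23 for the other 6 members. Over the 244 pairs with different numbers it was -0.21 to -0.01 for the 10 members, and below 0 by construction in part, since deviations sum to 0 in a group. The labels do not say whether 1 number is 1 mouse. Over all genes the mean correlation was 0.20 for same-numbered pairs and -0.07 for the others.

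Number 3 of the G9a mutants was the clearest case. Its Fos was the lowest of the 4 mutants in hippocampus (3.75), hypothalamus (5.15) and striatum (3.43), and its Nr4a1 was the lowest in the same 3 regions (4.06, 1.76 and 3.71). In the GLP series, mutant 2 had the highest Fos of its group in all 4 regions (4.65, 4.87, 5.45 and 6.19), and mutant 1 had the lowest Npas4 in all 4 (-0.96, -0.75, -0.36 and -0.57).

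**Figure D3:**
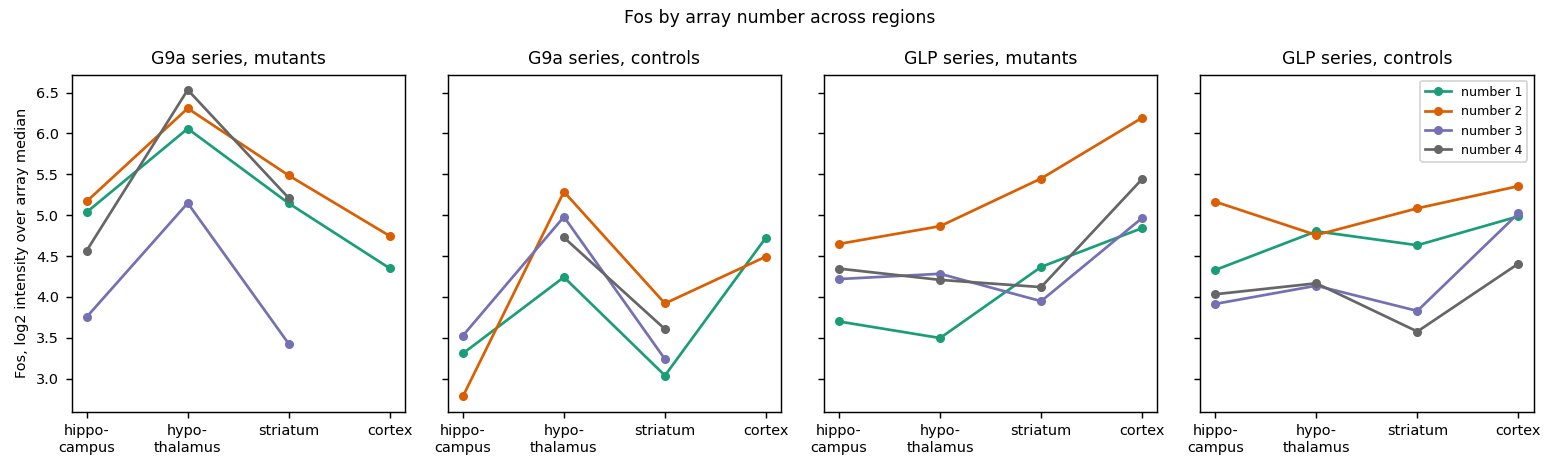
Fos level (log2 intensity over the array median, vertical axis) in each region (horizontal axis), with lines that join arrays of the same number, in panels for G9a mutants, G9a controls, GLP mutants and GLP controls. In the G9a mutants, number 3 is the lowest wherever it was measured, at 3.75, 5.15 and 3.43.

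When same-numbered arrays were first averaged over regions, Fos deviated from the region centres by 0.64, 0.92, -0.38 and 0.95 in G9a mutants 1 to 4, against -0.68, -0.39, -0.57 and -0.61 in controls 1 to 4. All mutant numbers lay above all control numbers, mutant 3 only just above control 2. The difference was 1.09 (SE 0.28, adjusted p = 0.0273). For Egr3 it was -0.52 (SE 0.11, adjusted p = 0.00752), with deviations of -0.12, 0.05, -0.49 and -0.49 in mutants and 0.24, 0.12, 0.34 and 0.30 in controls, which did not overlap. For Npas4 it was 1.20 (SE 0.36) and no longer passed (adjusted p = 0.0587), although the mutant values of 0.52, 0.77, 0.38 and 0.66 all lay above the control values of -0.52, -0.34, -0.80 and -0.81. In the G9a series numbers 3 and 4 had no cortex array, and control 4 had no hippocampus array. These regions therefore counted for less here than in the equal-weight average over regions. The Fos and Egr3 averages passed in every setting run, each array left out included. The Npas4 average was lost when values under the array median were raised to that median (0.63, adjusted p = 0.103) and without hippocampus control 2 (adjusted p = 0.0566), cortex mutant 2 (adjusted p = 0.0940) or cortex control 1 (adjusted p = 0.0705).

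The members also varied from array to array within groups more than most genes. The SD of Npas4 around its group means in whole tissue was 0.80, higher than for 99.7% of 11555 genes, whose median SD was 0.19. The percentile was 99.0 for Fos, 98.7 for Egr2, 98.4 for Fosb, 98.3 for Egr4, 98.1 for Arc, 96.4 for Nr4a1 and 92.9 for Junb. Egr3 (81.6) and Egr1 (77.0) were the steadiest. Fosb and Egr4 lay mostly below the array median and are not among the 11555 genes, so these 2 are set against brighter genes. Npas4 is among them, but its group means in tissue ran only from -1.08 to 2.09, and some of its arrays lay below the array median. In the pools, where 5 mice were mixed per array, the median SD of all genes was 0.40, and the members ranged from the 8.12th percentile for Egr1 to the 94.4th for Arc. Npas4 was at the 56.6th there, with group means of 2.19 to 3.31.

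Deviations of the members went together. Of 45 pairs of members, 39 were positively correlated over the 59 tissue arrays, with a median Pearson r of 0.30, against 0.06 for all pairs of 11555 genes. The highest was 0.79, between Fos and Nr4a1, followed by Fos with Arc (0.64) and Egr2 with Nr4a1 (0.64). Over these 59 arrays Egr3 and Fosb followed the others less closely: Egr3 was at 0.09 with Fos and -0.24 with Arc, and Fosb at 0.02 with Fos and -0.22 with Egr1. These values differed by region. Egr3 with Arc was 0.72 in hippocampus and 0.29 in striatum, but -0.68 in hypothalamus and -0.69 in cortex. Fosb with Fos was 0.54, 0.30, -0.59 and -0.49 in the same order. The median r was 0.59 in hippocampus, with all 45 pairs positive, 0.62 in striatum, 0.27 in cortex and 0.19 in hypothalamus, where several members lay below the array median. It was 0.33 in the GLP series, 0.28 in the G9a series and 0.31 in the pools. Arrays share hybridisation and scaling, and some share a number, so these are descriptions without a test.

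**Figure D4:**
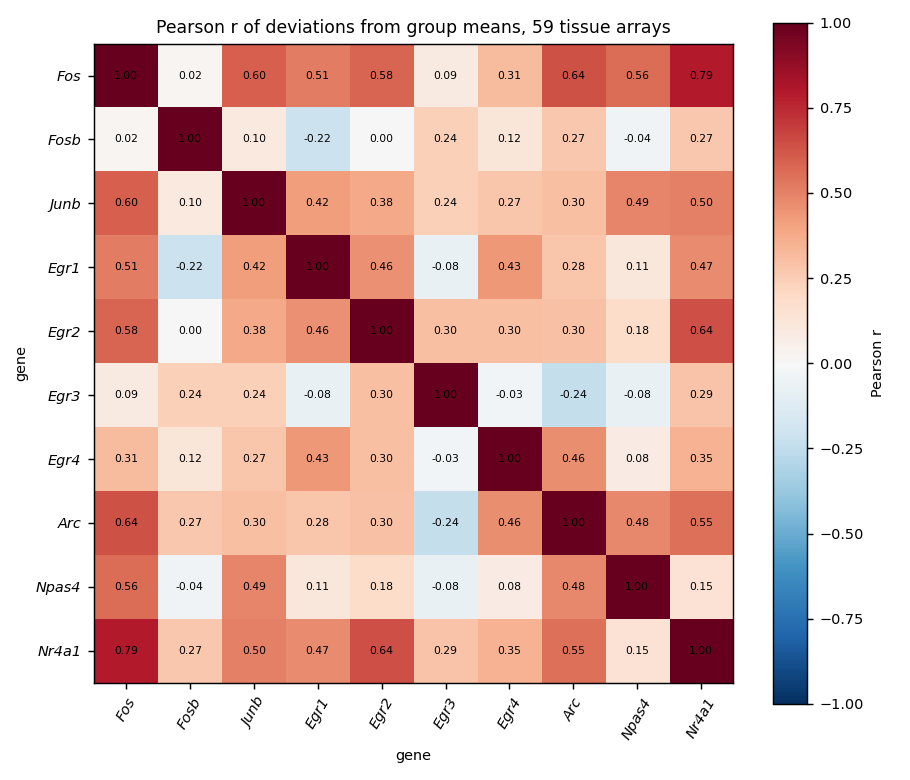
Pearson correlation of deviations from group means between each pair of the 10 genes (rows and columns) over the 59 tissue arrays, red for positive and blue for negative values. Fos and Nr4a1 reach 0.79, and Egr3 is near 0 or below with Fos (0.09), Egr1 (-0.08) and Arc (-0.24).

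The genes whose deviations were most like the mean of the 10 members were ranked over the same 59 arrays. Dusp1, a phosphatase that switches off MAP kinases and is itself an immediate early gene, came first with r = 0.71, and the value was 0.87 in the G9a series, 0.58 in the GLP series and 0.74 in the pools. Btg2, another early response gene, had rank 5 (0.49). The other 8 of the first 10 were Tnk2, Pnrc1, Itpripl2, Acvr1, Ipo4, Cbr3, Tox4 and Grid1, at 0.47 to 0.52, and of these Itpripl2 (-0.20), Cbr3 (-0.10) and Grid1 (-0.41) had the opposite sign in the pools. The median r was 0.14 over 41 other immediate early genes, 0.10 over 22 late response effectors and -0.02 over 25 upstream kinases and factors, against 0.01 over all genes. Cell type lists had values as high as these: 0.16 over 8 microglia markers, 0.14 over 3 Drd2 neuron markers and 0.12 over 7 hypothalamus markers. The lowest were -0.31 for 6 endothelial and -0.21 for 6 oligodendrocyte markers.

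The wider pathway was counted beside the share of all genes that passed in either direction. Among other immediate early genes, 3 of 44 tested were higher in G9a mutant hippocampus, beside 2.72% of all genes: Cdkn1a, a cell cycle inhibitor (difference 0.67, SE 0.17, adjusted p = 0.0125), Dusp1 (0.79, SE 0.21, adjusted p = 0.0292) and Ccn1, a secreted matrix protein (0.78, SE 0.22, adjusted p = 0.0328). The list's median difference there was 0.13, against 0.03 over all genes. In G9a striatum 1 of 42 was higher, beside 3.02%, the orphan receptor Nr4a2 (3.44, SE 0.61, adjusted p = 0.000122), in the arrays whose cortical markers are given above. In G9a hypothalamus 1 of 42 was higher, beside 2.34%, the growth factor signalling inhibitor Spry2 (0.40, adjusted p = 0.0430). Averaged over the regions, Ccn1 (0.48) and Dusp1 (0.36, adjusted p = 0.0430) were higher, and the CREM repressor gene Crem (-0.41) and the ERK phosphatase gene Dusp6 (-0.33) were lower, 4 of 45 tested, beside 6.28%. In GLP mutants 0 of 33 to 39 tested passed by limma in any region, beside 1.01% to 2.05%, with 0 to 5 at an unadjusted p under 0.05. By the GLP average 1 of 42 was lower, beside 6.13%, Spry2 (-0.19, adjusted p = 0.0296).

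Among late response effectors, which act downstream of these transcription factors, Inhba, encoding the activin A subunit, was lower in G9a hippocampus (-0.69, SE 0.19, adjusted p = 0.0298) and striatum (-1.15, SE 0.18, adjusted p = 9.01e-06) and in GLP striatum (-0.80, SE 0.18, adjusted p = 0.00413). It was also lower by the average in G9a (-0.60) and GLP (-0.38) mutants. In G9a hippocampus it was joined by Bcl6 (-0.56, adjusted p = 0.0175), 2 of 21 tested beside 2.72% of all genes, and in GLP striatum by the synaptic scaffold gene Homer1 (-0.43, adjusted p = 0.0375), 2 of 20 tested beside 1.67%. In GLP hippocampus the opioid precursor gene Pdyn was higher (0.66, adjusted p = 0.0235), 1 of 21 tested beside 2.05%. By the GLP average 4 of 23 passed, beside 6.13%, with Pdyn (0.41) and Scg2 (0.21) higher and Inhba and Syne1 (-0.26) lower. Of 25 upstream kinases and factors tested in G9a hippocampus and hypothalamus, 1 passed in each, beside 2.72% and 2.34%: Rps6ka5, a kinase that phosphorylates histone H3 (0.51, adjusted p = 0.00226), was higher in the first and the coactivator gene Crebbp (0.38, adjusted p = 0.00450) in the second. Of 14 to 16 partners and inhibitors tested per region, 0 passed by limma, beside 0.728% to 3.02%, with 0 to 2 at an unadjusted p under 0.05.

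Control arrays were also compared across regions. Hypothalamus had the lowest mean level of all 9 members other than Fos, although Npas4 did not differ there from hippocampus past the threshold and Egr4 was not tested. Averaged over the control groups of both series, Egr3 stood at 6.51 in hippocampus, 0.78 in hypothalamus, 7.06 in striatum and 6.56 in cortex. The difference of hypothalamus minus striatum was -6.28 (SE 0.12), at -5.28 in the G9a series and -7.28 in the GLP series, where 3 of 4 hypothalamus controls lay below the array median. Egr1 stood at 6.08, 3.85, 7.22 and 6.81 in that order of regions, and all 4 differed from each other past the threshold. The Egr1 difference of striatum minus cortex (0.41) was 0.79 in the G9a series and 0.03 in the GLP series, and it was lost with quantile normalization (0.24, adjusted p = 0.0982), with 75th percentile centring (0.25, adjusted p = 0.0831) and without G9a cortex control 2 (adjusted p = 0.0551). Egr2 stood at 1.11, 0.08, 3.48 and 1.95 and also differed between every pair, with striatum highest, although hippocampus minus cortex was lost without G9a cortex control 1 (-0.68, adjusted p = 0.0759). Arc stood at 3.39, 0.17, 3.06 and 3.14, and Nr4a1 at 4.28, 1.76, 4.43 and 3.68. For Arc the 3 regions other than hypothalamus did not differ past the threshold, and for Nr4a1 hippocampus and striatum did not.

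Fos had another order: 4.78 in cortex, 4.64 in hypothalamus, 3.87 in striatum and 3.78 in hippocampus. Cortex and hypothalamus did not differ past the threshold (difference of hypothalamus minus cortex -0.14, SE 0.30), nor did hippocampus and striatum (-0.08, SE 0.28), while each of the first pair exceeded each of the second. Tested in each series alone, these Fos differences passed in the G9a series but not in the GLP series, where they kept their sign. In the GLP series hippocampus minus hypothalamus was -0.11 and hippocampus minus cortex -0.58. Hypothalamus minus striatum was 0.19 there and striatum minus cortex -0.66. Junb was 1.25 in cortex, 0.80 in hippocampus, 0.70 in striatum and -1.31 in hypothalamus. Npas4 was 0.81 in striatum, 0.67 in cortex, -0.48 in hippocampus and -0.69 in hypothalamus, where neither the first 2 nor the last 2 differed past the threshold. Fosb was 0.42 in striatum, -0.13 in hippocampus, -0.46 in cortex and -1.69 in hypothalamus, and Egr4 was below 0 in all 4 regions.

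Counts of members that differed stood near the background. Hippocampus differed from hypothalamus in 8 of 9 members tested (7 higher, Fos lower), beside 72.4% of all genes. It differed from striatum in 4 of 9 (4 lower), beside 52.7%, and differed from cortex in 6 of 9 (Nr4a1 higher, 5 lower), beside 63.9%. Hypothalamus differed from striatum in 9 of 9 (Fos higher, 8 lower), beside 73.1%, and from cortex in 7 of 8 (7 lower), beside 74.1%. Fosb and Junb lay below the array median in every hypothalamus control of both series. Npas4 did so in 3 of 4 GLP-series and 4 of 4 G9a-series hypothalamus controls. Where tested against hypothalamus, these genes met the filter mainly through the other region, so their lower level in hypothalamus followed in part from the filter. Striatum differed from cortex in 7 of 9 (5 higher, Fos and Junb lower), beside 68.2%. Of the 5, Fosb lay below the array median in 2 of 2 G9a-series and 4 of 4 GLP-series cortex controls. Fosb met the filter only through striatum, so its direction followed at least in part from the filter. Excitatory neuron markers had uneven list means in striatum controls, at 0.37 to 2.86 in the G9a series and 1.79 to 3.36 in the GLP series. Their part in the striatum comparisons was not tested. With the mean of both Egr3 probe sets, the Egr3 difference of striatum minus cortex was -0.13 in place of 0.50. Of the 41 differences called, 37 could be tested in each series alone, all 37 had the same sign in both, 21 passed in both, 18 in 1 series (4 of these could be tested in that series alone) and 2 in neither, which were Junb and Npas4 in hippocampus minus cortex. Those calls were also lost on leaving out single arrays, with adjusted p up to 0.138 for Junb without G9a cortex control 1 and 0.102 for Npas4 without G9a hippocampus control 2. Egr1 in hippocampus minus cortex was -0.09 in the G9a series and -1.38 in the GLP series, and Fos in hippocampus minus hypothalamus was -1.60 and -0.11 in the same order. The Nr4a1 call in hippocampus minus cortex was lost with quantile normalization (0.43, adjusted p = 0.0758) and 75th percentile centring (0.42, adjusted p = 0.0780), and the Egr3 call in hippocampus minus striatum with the mean of both probe sets (-0.18, adjusted p = 0.0620). With values under the array median raised to it, Fosb in hippocampus minus hypothalamus (adjusted p = 0.0733) and Npas4 in hippocampus minus cortex (0.198) and hypothalamus minus cortex (0.0604) were lost. Another scaling of the arrays moved the median of all genes by up to 0.17 in these comparisons.

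**Figure D5:**
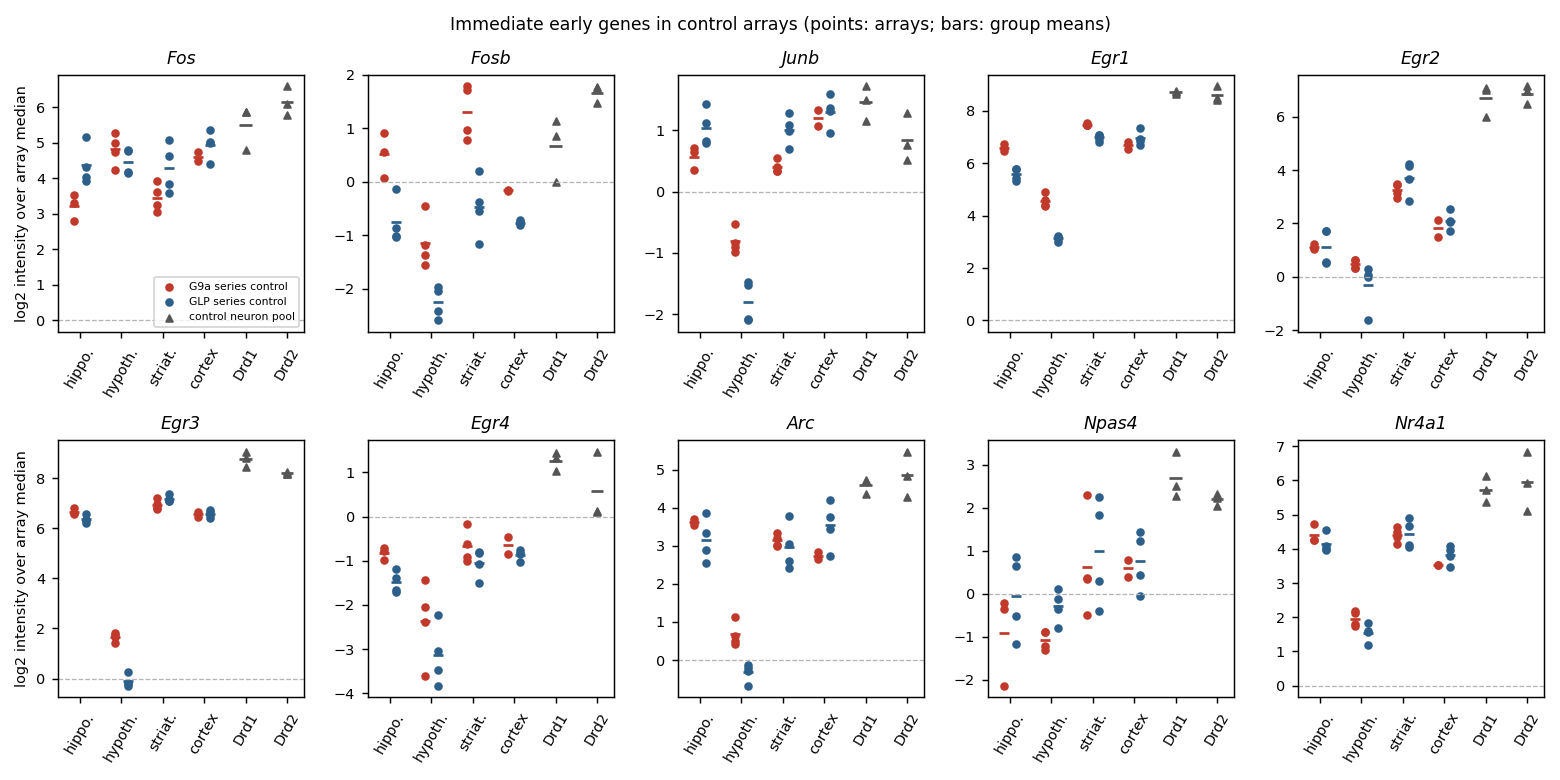
Levels of the 10 genes (log2 intensity over the array median, vertical axis, with its own range per gene) in control arrays of the G9a series (red), the GLP series (blue) and the Drd1 and Drd2 pools (grey). Points are arrays and bars are group means. Egr3 lies at 1.41 to 1.82 in G9a-series hypothalamus and at -0.28 to 0.26 in GLP-series hypothalamus, against more than 6 in every other control tissue array.

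Controls of the 2 series, which the design does not compare, also differed. In hypothalamus 4 of 6 members differed, beside 65.8% of all genes, and these 4 were higher in G9a-series controls than in GLP-series controls: Egr3 (1.77, SE 0.18), Egr1 (1.43, SE 0.17), Arc (1.00, SE 0.31) and Egr2 (0.80, SE 0.35). Arc lay below the array median in 4 of 4 GLP-series and 0 of 4 G9a-series controls there. Egr3 did so in 3 of 4 and 0 of 4. Arc met the filter only through the G9a series and Egr3 mainly so, and their direction followed at least in part from the filter. In hippocampus 3 of 8 differed, beside 35.1%, with Fosb (1.27) and Egr1 (1.02) higher and Fos (-1.15, SE 0.40, adjusted p = 0.0222) lower in G9a-series controls. Fosb lay below the array median in 4 of 4 GLP-series and 0 of 3 G9a-series hippocampus controls. It met the filter only through the G9a series, so its direction there followed at least in part from the filter. The Fos call was lost without G9a control 2 (adjusted p = 0.122) or GLP control 2 (adjusted p = 0.102), and the Egr2 call in hypothalamus without GLP control 1 (0.36, adjusted p = 0.361). In striatum 3 of 9 differed, beside 45.8%, with Fosb (1.78) and Egr1 (0.49) higher and Junb (-0.61) lower. Fosb lay below the array median in 3 of 4 GLP-series and 0 of 4 G9a-series striatum controls. It met the filter mainly through the G9a series there too. The Junb call was lost without GLP control 1 (adjusted p = 0.0580), GLP control 2 (0.0871), G9a control 3 (0.0543) or G9a control 4 (0.0571). In cortex 0 of 8 passed by limma, beside 0.0943%, and 1 had an unadjusted p under 0.05. The Xist values above differed between the series too, as did the ranges of excitatory neuron marker means in striatum controls, and their part in these differences was not tested. For Fos the G9a-series hippocampus controls (2.78 to 3.53) lay below all GLP-series controls (3.91 to 5.16), and the G9a mutants stood at 3.75 to 5.17.

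Control pools of the 2 neuron types did not differ past the threshold in any of 10 members by limma, beside 15.4% of all genes, with 2 members at an unadjusted p under 0.05. Egr3 was 9.06, 8.43 and 8.79 in Drd1 controls and 8.23, 8.18 and 8.17 in Drd2 controls. These did not overlap, and the difference was 0.57 (SE 0.21, adjusted p = 0.0872). Fosb was 1.14, -0.01 and 0.86 in Drd1 controls and 1.75, 1.76 and 1.47 in Drd2 controls, also without overlap, with a difference of -0.999 (SE 0.42, adjusted p = 0.128). The level of every member in the pools was set by another preparation than in whole tissue and is not compared with it.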

How the data were processed

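The authors deposited 1 intensity per probe set and array for 71 arrays. Per the submitters' processing notes these intensities were made with GCRMA, which corrects background, normalizes and summarises probes; the labels state neither its version nor the grouping of arrays at that step. The deposited values are linear, with a median of 1 in each array and maxima of 879.3 to 2816. Groups and numbers come from sample titles. In 1 control of G9a hypothalamus the number is 4 in the title but 5 in the source name; the title was followed. Mice were 10 to 14 weeks old per the series design.

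The log2 of each value was taken, with no floor. Of 34945 probe sets with 1 gene symbol, 34741 matched a RefSeq Entrez identifier, and the brightest probe set on average was kept for each of 18193 genes. Linear models of group means used limma 3.58.1 (R 4.3.3), with the 16 tissue groups (59 arrays) in 1 fit and the 4 polyribosome groups (12 arrays) in another, with an intensity trend and Benjamini-Hochberg adjustment at 0.05. Genes entered a test if they exceeded 0 on the log2 scale in a number of the arrays compared no smaller than the smallest group. The number of arrays limits the precision. The p-values measure the spread between arrays pooled over all groups of a fit; the labels call the replicates biological. The script was tested on simulated data.

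The members and gene lists were chosen with earlier results of these data known. Genes named are the 10 members, the deleted genes, up to 4 called genes of smallest p per pathway list and comparison, and the 10 genes most like the members' mean deviation; markers moving with a result are named beside it. Same-numbered mutants and controls had correlated deviations over 0.1 in every pair only in the Drd2 pools (3 of 3), so numbers were taken to pair samples there alone. The block changed no call in those pools. Alternatives varied the filter, a floor, the trend, normalization, array weights, probe sets, the arrays in the fit, the number as a block and each array left out.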

Additional observations from a re-analysis of the deposited data

Results flagged for a closer look

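Groups of 4 arrays gave 130 sets (1 member in 1 group). Of these, 8 held an array that stood apart from the others of its group by Dixon's criterion at the 95% level. Chance flags about 1 in 20 sets, so about as many would be expected if nothing stood apart. In G9a mutants, number 3 stood apart 3 times: Fos in striatum was 3.43, with the others at 5.15 to 5.49, Egr3 in striatum was 6.16, with the others at 6.54 to 6.57, and Nr4a1 in hypothalamus was 1.76, with the others at 2.59 to 2.73.

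In GLP mutants, number 1 stood apart 3 times. Npas4 in cortex was -0.57, with the others at 1.53 to 1.95, Egr1 in hypothalamus was 2.28, with the others at 3.35 to 3.45, and Fosb in striatum was -0.086, above the others at -1.21 to -1.07. GLP mutant 2 had Egr4 at -2.48 in hypothalamus, above the others at -3.08 to -2.99. GLP control 1 had Egr2 at -1.64 in hypothalamus, with the others at -0.00 to 0.30.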

How the results depend on the processing

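Over 31 counts of members called, 268 of 282 values under other settings stayed within 1.5 times of the reported count. For G9a hippocampus the count of 1 became 0 with quantile normalization and 0 with array weights. For G9a striatum it became 2 with values under the array median raised to that median, 2 with array weights and 0 with a fit to those groups alone. For G9a hypothalamus it became 0 with the mean of all probe sets, 0 with the compared groups alone and 2 with the replicate block, which added Fos. The GLP minus G9a average became 1 with array weights. The Drd1 minus Drd2 control count of 0 became 2 with array weights, 1 with the mean of all probe sets and 1 with 75th percentile centring. The series difference of controls became 7 in hypothalamus with no filter, and 5 in striatum with array weights. Leaving out 1 array gave 0 to 1 calls in G9a hippocampus, 0 to 2 in G9a hypothalamus, 0 to 2 in G9a striatum and 0 to 1 for the GLP minus G9a effect in hypothalamus. Among single members, 2342 of 2388 other values kept their call and direction, 20 lost and 25 gained the threshold, and Egr3 in control striatum minus cortex reversed to -0.13 with the mean of all probe sets. Leaving out 1 array kept 3803 of 3852. The cause of these changes was not tested. The numbers as a block changed no other count. Averaging numbers over regions and 75th percentile centring were chosen after seeing the data.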
